A study of Arabidopsis thaliana with 4 samples.

Results

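Leaves of the jasmonate mutant myc2 were compared with wild-type (WT) leaves at R3, the sampling point labelled as 3 h after submergence, by setting the RNA-seq library myc2 R3 against the library WT R3. These are 2 of the 4 libraries of the study, and 17491 of the 31319 loci in each table entered the comparison because their mean over both libraries was at least 1 RPKM (a gene's reads divided by its length in kilobases and by the mapped reads in units of 1000000). Plants were Arabidopsis thaliana of the Col-0 background, 4 weeks old, and each library was made from leaf material of 6 plants. By the treatment protocol, the plants had been held under water in darkness for 24 h before their return to air. That protocol names harvests at 0 and 24 h of reoxygenation and not at 3 h, so the 3 h are known from the labels alone. The mutant is named myc2-2 in the protocol and myc2 in the labels, and only this allele was used. From its title, the study asked if jasmonate shapes how plants respond to reoxygenation by activating antioxidant synthesis. The remaining libraries, WT air and myc2 air, come from plants sampled before submergence, and are used below only as context. No library is labelled as kept dark in air. Each group is 1 library, so no difference below has a replicate check, no test was run, and "lower" and "higher" describe these libraries only.

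Jasmonate is made from a fatty acid of chloroplast membranes and is active as its conjugate with isoleucine. The conjugate joins the receptor COI1 to JAZ repressor proteins, which are then degraded, and MYC2, a basic helix-loop-helix transcription factor held back by JAZ proteins, is released. MYC2 and its relatives MYC3 and MYC4 bind the G-box CACGTG and activate genes for jasmonate synthesis, for JAZ repressors and for wound defence, so that the pathway feeds back on itself. Jasmonate and salicylic acid, the signal of defence against biotrophic pathogens, are known to oppose each other in leaves.

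MYC2 (AT1G32640) was at 91.7 RPKM in WT R3 and 34.9 in myc2 R3, a log2 ratio of −1.37 on the scale log2((myc2 + 1)/(WT + 1)) used throughout. The air libraries stood at 45.9 and 14.2, so transcript was also lower in the library labelled myc2 there. A gene on the opposite strand overlaps MYC2 and whether counting used strand is not stated, so a part of these values may come from its partner. The same holds for 81 of the 371 listed genes past the filter, among those described below COI1, AIM1, THI2.1, EDS5, SARD1, PMI1, PMM, AT4G33670, GR1, GPX2, ADH1 and CHS. MYC3 was at 38.8 and 38.8 RPKM, MYC4 at 12.3 and 11.4, and COI1 at 14.5 and 15.4, in the order WT R3 and myc2 R3, which is kept below. None of these 3 partners of MYC2 reached a 2-fold difference, and MYC3 and COI1 turned direction under at least 1 of the alternatives in the closing section. JAM1, a related factor that represses jasmonate targets, was lower in myc2 (27.8 and 12.4, log2 −1.11). NINJA, the adaptor of JAZ repression, was at 42.8 and 29.6. The fourth member of the MYC group, listed as NIG1, was at 0.0705 and 0.146 and did not pass the filter.

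Of the 17491 genes, 280 (1.6%) were at least 2-fold lower in myc2 R3 and 335 (1.92%) at least 2-fold higher, while 16876 (96.5%) lay within 2-fold. The median log2 ratio was 0.04, and 5% of genes lay below −0.55 and 5% above 0.68. At 4-fold the balance was the other way, with 49 genes lower and 32 higher. The split also moved with the scaling: higher genes made up 54.5% of those at least 2-fold apart in the deposited values, but 38.4% (225 higher and 361 lower) when both libraries were set to an equal sum at the scale of the deposited values, which moved the median of all genes to −0.08. The lower genes had a median of 16.7 RPKM in WT R3 and 5.45 in myc2 R3, and the higher genes 6.66 and 20.

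**Figure D1:**
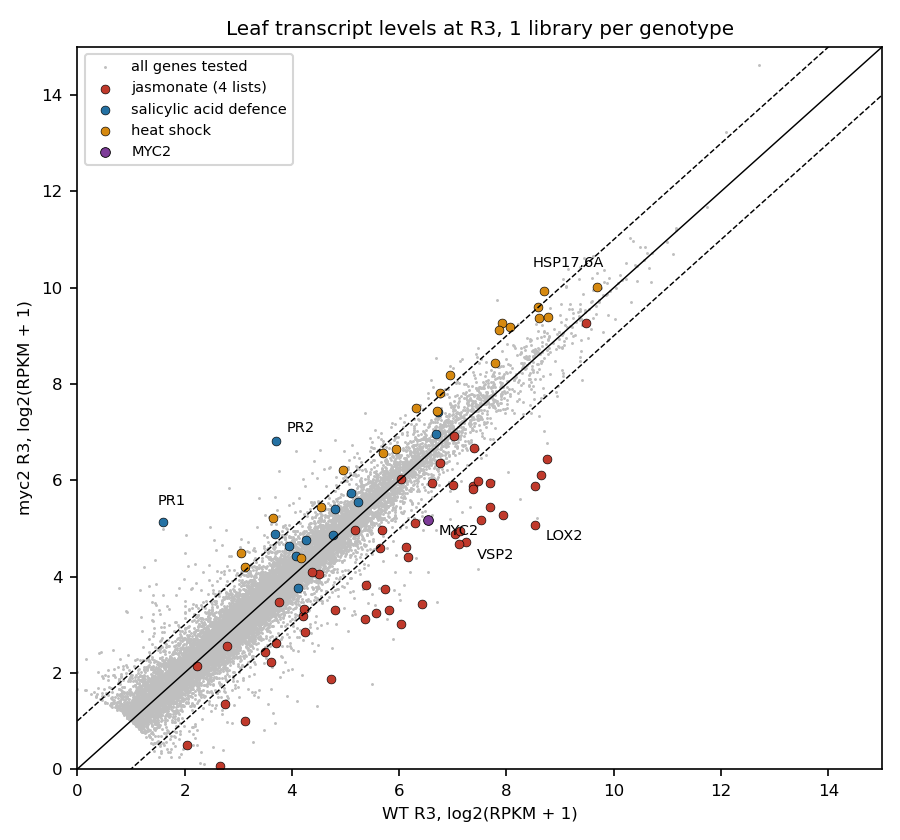
Each point is 1 of the 17491 genes tested, with log2(RPKM + 1) in WT R3 on the x axis and in myc2 R3 on the y axis. The solid line marks equal levels and the dashed lines 2-fold differences. Jasmonate genes of 4 lists (red) lie on or under the line of equal levels and 38 of them under the lower dashed line. Above the upper dashed line lie 3 of 13 salicylic acid genes (blue, among them PR1 and PR2) and 12 of 21 heat shock genes (orange).

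Depth was estimated from the steps between low values at 27.3 in WT R3 and 22.3 in myc2 R3, in units of 1000000 fragments. Over 1765 exon bases, the median length, 1 RPKM then stands for 48.2 and 39.4 fragments, with a counting error of 14.4% and 15.9%. That error covers counting alone and not differences between plants or library preparations. The leaf mesophyll markers (7 genes such as LHCB1.3 and RBCS1A) summed to 8361 RPKM in WT R3 and 8239.9 in myc2 R3, and all 7 passed the filter. All 7 floral organ markers were higher in myc2 R3, with a sum of 13.7 and 23.4 RPKM, and none was at 0, but only PI and SEP1 passed the filter. The part of any difference in tissue in the results below was not tested, and in bulk RNA fewer cells of a type and less RNA per cell cannot be told apart.

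Transcripts for JAZ repressors, which both silence MYC2 and are its targets, were lower in myc2 for 10 of the 12 members past the filter, against 1.6% of all genes, with a median log2 ratio of −1.40 against 0.04. JAZ10 showed the largest difference, at 55.5 RPKM in WT R3 and 8.83 in myc2 R3 (log2 −2.52). JAZ5 was at 52 and 12.3 (log2 −2.0). JAZ9 and JAZ1, the most abundant members in WT R3, were at 164 and 55.8 and at 164 and 58.3. The family thus differed by about the same log2 step in its middle, since JAZ9, JAZ2, JAZ1, JAZ8, JAZ7 and JAZ3 all lay between −1.54 and −1.38. JAZ6 was at 77.2 and 33.3, and AT3G22275, annotated as a jasmonate ZIM-domain protein, at 17.4 and 8.08 (log2 −1.02). JAZ12, at 108 and 81.2, and JAZ11, at 5.89 and 4.91, stayed within 2-fold, and JAZ4 was under the filter at 0.249 and 0.155. JAZ10, JAZ12 and AT3G22275 overlap a gene on the opposite strand. In air, 3 of the 10 members past the filter were at least 2-fold lower in myc2, against 0.343% of all genes there. Their median in air was −0.67, against 0.22 for all genes.

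The G-box bound by MYC2 was looked for as CACGTG, which reads the same on both strands, in the 300 bases before each annotated gene start (RefSeq, assembly TAIR10.1). It occurred in 8.11% of the 17378 windows of tested genes, in 17.2% (48 of 279) of those of genes at least 2-fold lower in myc2 and in 6.27% of those of genes at least 2-fold higher. The related hexamer AACGTG on either strand occurred in 8.43%, 24.7% and 12.5%. In the JAZ, jasmonate synthesis, turnover and wound-response lists, CACGTG occurred in 18.4% of the 38 genes at least 2-fold lower and 14.3% of the 14 within 2-fold. It occurred in 13.6% of 22 ascorbate synthesis and glutathione genes, none of them 2-fold apart. Of the 12 JAZ genes past the filter, 5 held CACGTG (JAZ2, JAZ3, JAZ7, JAZ8 and AT3G22275), while none of the 10 jasmonate turnover genes described below did. A match is a string of letters and not a measured site of binding. The 5 windows below are those of the jasmonate genes with the lowest ratios among those at least 2-fold lower that hold the motif, printed 5′ to 3′ on the gene's strand with the motif in capitals. In AOS, the second enzyme of jasmonate synthesis, the motif forms the last letters before the annotated start. In RAP2.6, an ethylene response factor induced by jasmonate and wounding, it begins 83 bases before the start, in JAZ2 66, in JAZ8 10 and in JAZ7 34 bases before it.
AOS (chr5:17099596-17099895, minus strand): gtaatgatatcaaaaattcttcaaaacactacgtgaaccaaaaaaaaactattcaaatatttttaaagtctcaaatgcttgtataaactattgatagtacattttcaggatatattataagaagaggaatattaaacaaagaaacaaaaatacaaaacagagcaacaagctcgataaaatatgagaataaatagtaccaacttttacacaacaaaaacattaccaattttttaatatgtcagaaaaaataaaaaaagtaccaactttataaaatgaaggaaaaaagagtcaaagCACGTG
RAP2.6 (chr1:16263505-16263804, plus strand): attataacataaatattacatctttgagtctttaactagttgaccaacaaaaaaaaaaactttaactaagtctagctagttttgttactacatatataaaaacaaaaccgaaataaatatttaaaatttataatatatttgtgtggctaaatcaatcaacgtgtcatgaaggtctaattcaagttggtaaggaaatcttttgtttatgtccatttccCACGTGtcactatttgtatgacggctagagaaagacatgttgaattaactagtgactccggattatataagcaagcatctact
JAZ2 (chr1:28150447-28150746, minus strand): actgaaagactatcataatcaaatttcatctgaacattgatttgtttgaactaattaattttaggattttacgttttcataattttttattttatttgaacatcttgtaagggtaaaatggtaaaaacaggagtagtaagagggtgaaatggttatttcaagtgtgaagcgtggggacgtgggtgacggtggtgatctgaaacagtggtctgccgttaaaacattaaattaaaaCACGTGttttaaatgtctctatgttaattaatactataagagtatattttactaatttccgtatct
JAZ8 (chr1:10596052-10596351, plus strand): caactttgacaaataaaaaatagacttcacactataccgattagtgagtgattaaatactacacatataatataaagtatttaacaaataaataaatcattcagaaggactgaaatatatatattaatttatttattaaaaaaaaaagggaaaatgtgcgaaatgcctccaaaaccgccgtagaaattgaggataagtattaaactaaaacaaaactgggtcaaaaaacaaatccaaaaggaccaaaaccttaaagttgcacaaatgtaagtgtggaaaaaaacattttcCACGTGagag
JAZ7 (chr2:14572730-14573029, plus strand): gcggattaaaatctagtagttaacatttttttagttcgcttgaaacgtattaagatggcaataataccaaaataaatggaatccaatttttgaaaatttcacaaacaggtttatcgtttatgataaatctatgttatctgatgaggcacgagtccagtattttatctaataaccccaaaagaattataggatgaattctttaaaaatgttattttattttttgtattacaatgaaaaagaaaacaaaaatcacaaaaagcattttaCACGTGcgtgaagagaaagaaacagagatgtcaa

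Genes for jasmonate synthesis were lower in myc2 for 8 of the 16 members past the filter, with a median log2 ratio of −0.96, and all 16 had a ratio below 0. The lists and families that follow can be read against the same shares over all genes, 1.6% lower and 1.92% higher, and the median of 0.04. For air the values over all genes are 0.343% lower, 2.47% higher and a median of 0.22. In the chloroplast stage the ratios ran from −3.46 for LOX2 to −0.30 for LOX4. LOX2, the lipoxygenase that supplies most wound-induced jasmonate, was at 367 RPKM in WT R3 and 32.5 in myc2 R3, a log2 ratio of −3.46. AOS, the allene oxide synthase whose upstream window is printed above, was at 432 and 85.3 (log2 −2.33). Among the allene oxide cyclases, which close the ring, AOC2 was at 399 and 68, AOC1 at 131 and 28.7 and AOC3 at 128 and 58.9, while AOC4 was at 21.6 and 15.5 and within 2-fold. The other lipoxygenases ranged from LOX3, at 27 and 8.93 (log2 −1.50), to LOX4, at 12.6 and 10.1, with LOX6 between them at 17.6 and 9.05. LOX6 reached 2-fold with libraries of equal sum (log2 −1.02 at the scale of the deposited values).

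In the peroxisomal stage the lower genes were OPR3 and OPCL1. OPR3, the reductase of the precursor OPDA, was at 70.8 and 20.3 (log2 −1.75), and OPCL1, the ligase that activates its product, at 48.7 and 23.3 (log2 −1.03, and −0.93 with a pseudocount of 5). The beta-oxidation genes ACX1 (167 and 101), AIM1 (35.3 and 30.1), ACX5 (3.69 and 3.38) and KAT2 (64.5 and 64.1) lay within 2-fold. JAR1, which conjugates jasmonate to isoleucine, was at 50.4 and 30.4. The lipase gene DAD1 was under the filter, at 1.13 and 0.235. In air, 4 of the 16 were at least 2-fold lower in myc2 and the median was −0.16.

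All 10 jasmonate turnover genes past the filter were at least 2-fold lower in myc2, and their median log2 ratio of −2.22 was the lowest of the 28 lists. Of the cytochrome P450s that oxidise the active conjugate, CYP94B3 was at 25.6 RPKM in WT R3 and 2.65 in myc2 R3 (log2 −2.87), CYP94B1 at 7.76 and 0.988, and CYP94C1 at 10.2 and 4.39. The oxygenase genes AT2G38240, JRG21 and AT5G05600, annotated as or related to 2-oxoglutarate and Fe(II)-dependent oxygenases, were at 64.9 and 7.07, at 46.1 and 8.43, and at 205 and 42.3. The amidohydrolases that split the conjugate, ILL6 and IAR3, were at 39.97 and 7.62 and at 177 and 62.5. Genes for oxidation and for cleavage of the conjugate were thus lower alike. The sulfotransferase gene ST2A, which acts on hydroxylated jasmonate, was at 139 and 29.8, and JMT, which forms methyl jasmonate, at 3.13 and 0.409. The remaining member, AT3G11180, was under the filter at 0.0372 and 0 RPKM. Only 6 of these genes passed the filter in air, 2 of them at least 2-fold lower in myc2, with a median of −0.90.

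**Figure D2:**
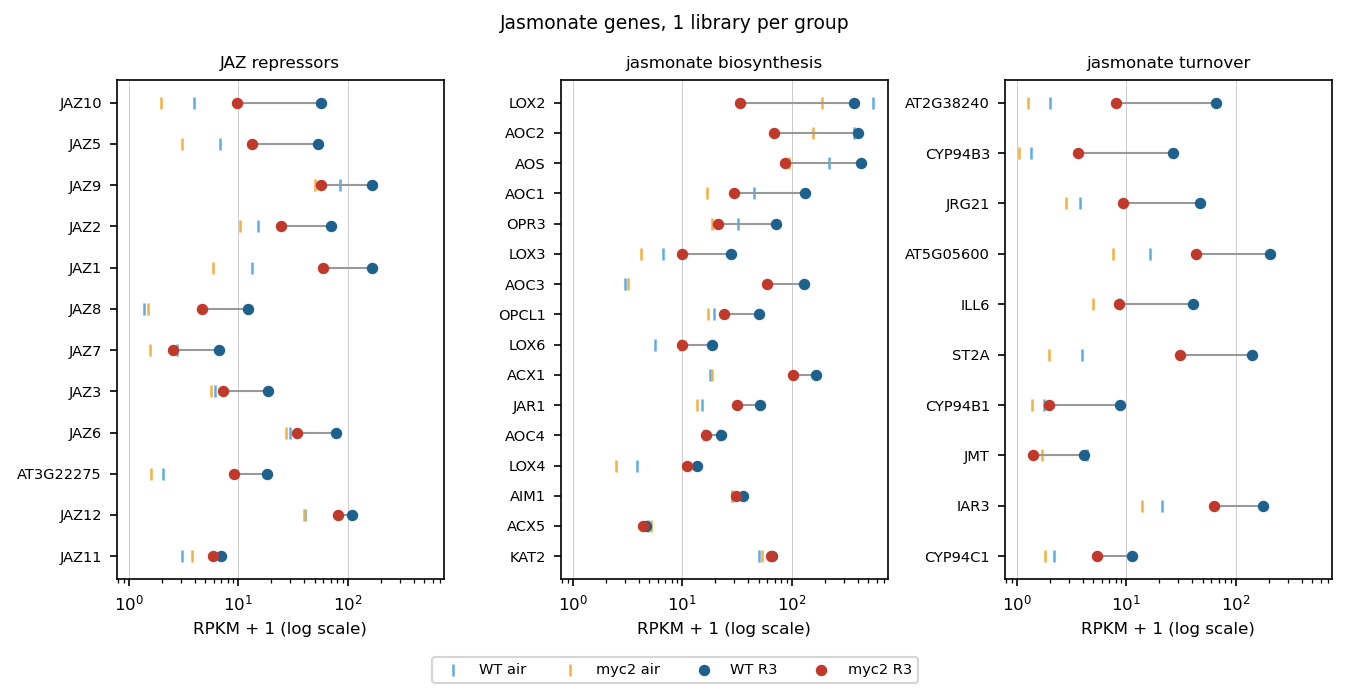
RPKM + 1 on a log axis for the members past the filter of 3 lists, with WT R3 as blue and myc2 R3 as red points joined by a line, and WT air and myc2 air as blue and orange ticks (1 library each, no error bars). The red point lies to the left of the blue one in every row, by the widest step for LOX2, AT2G38240 and CYP94B3 and by almost none for KAT2.

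Wound-response genes downstream of jasmonate were lower in 10 of 14, with a median of −2.06, and none was higher. NATA1, an acetyltransferase of ornithine, was at 85.5 and 9.83 RPKM (log2 −3.0), CLH1, a chlorophyllase, at 243 and 37.7, and TAT3, annotated as a tyrosine aminotransferase, at 370.1 and 58.3. TPS04, the geranyllinalool synthase, was near 0 in myc2, at 5.36 and 0.0520 RPKM or an estimated 428 and 3.39 fragments. VSP2, a vegetative storage protein and the classical readout of MYC2, was at 150.1 and 25.4 (log2 −2.52), and VSP1 at 40.6 and 13.2. These storage protein genes had been higher in air in both genotypes, VSP2 at 234 and 30.1 and VSP1 at 341 and 153. RAP2.6, whose window is shown above, was at 205 and 60.3 at R3 and near 0 in air (0.170 and 0). The arginase gene ARGAH2 (184 and 35) and the cystine lyase gene CORI3 (138 and 24.5) followed the same direction. The smallest differences were those of RD22, a dehydration-responsive gene (711 and 617), ANAC055 (19.9 and 16.2), ANAC019 (96.6 and 60.6) and the lectin gene AT3G15356 (129 and 119). In air, 8 of 12 were at least 2-fold lower and 1 higher.

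The other jasmonate branch, in which jasmonate and ethylene together induce defensins through ORA59 and ERF1, showed a mixed picture. Of 9 genes, 2 were lower and 1 higher, with a median of −0.36. The defensin genes PDF1.2a (11.8 and 0.930 RPKM, log2 −2.73) and PDF1.2c (6.34 and 0.955) were lower in myc2 at R3. In air neither was lower, at 14.3 and 20.3 and at 3.65 and 8.28. In myc2 R3 they rested on an estimated 12.01 and 11.7 fragments. The defensin genes PDF1.2b (5.39 and 3.99) and PDF1.3 (1.57 and 0.751) lay within 2-fold at R3. The regulators ORA59 (1.94 and 2.50) and ERF1 (1.88 and 2.89) lay within 2-fold at R3. Of 8 members past the filter in air, PDF1.2b (1.97 and 9.34) and ORA59 (2.096 and 6.38) were at least 2-fold higher in myc2. None was lower there, and the median was 0.97 against 0.22 for all genes. THI2.1, a thionin, was higher in myc2 (1.93 and 5.36, log2 1.12), but its ratio was 0.88 once the trend with gene length described below was subtracted.

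Genes of antioxidant synthesis, the subject of the study, lay within 2-fold. With the pseudocount of 1 RPKM, no member of the ascorbate biosynthesis list (10 genes, median −0.21) or of the glutathione list (12 genes, median 0.14) was 2-fold apart. VTC1, the GDP-mannose pyrophosphorylase, was at 121 RPKM in WT R3 and 90.9 in myc2 R3 (log2 −0.41). VTC2, the GDP-galactose phosphorylase at the first committed step of ascorbate synthesis, was at 341 and 273 (log2 −0.32), and its relative VTC5 at 35.3 and 25.5. GSH1, the glutamate-cysteine ligase that limits glutathione synthesis, was at 98.3 and 61.7 (log2 −0.66), and GSH2, the glutathione synthetase, at 38.8 and 26.3 (log2 −0.54). These 5 genes were therefore lower in myc2 by less than 2-fold. Of all genes 5% lay below −0.55, among them GSH1 but not VTC1, VTC2, VTC5 or GSH2. The direction held under each of the alternatives in the closing section, but these could not have turned it. The rescalings lower the ratio of myc2 to WT, and the rest keep its sign or shift it too little. The log2 ratios in air were 0.28 for VTC1, 0.08 for GSH1 and 0.11 for GSH2, and for VTC2 −0.28, close to its ratio at R3. Of the other ascorbate synthesis genes, PMI1, a phosphomannose isomerase, came nearest to 2-fold at 41.1 and 22.4 (log2 −0.85). PMM (27.2 and 24.2), GME (78.1 and 76.6), VTC4 (9.06 and 9.20), GLDH (8.13 and 6.67) and the galactose dehydrogenase AT4G33670 (10.9 and 11.7) were close to equal.

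In the recycling of ascorbate 2 of 13 genes were at least 2-fold lower and none higher, with a median of 0.00. MDAR3, a monodehydroascorbate reductase, was at 104 RPKM in WT R3 and 10.03 in myc2 R3, a log2 ratio of −3.25, and was at only 1.69 and 0.367 in air. DHAR1, a dehydroascorbate reductase, was at 489 and 214 (log2 −1.19), although 15.4% of its 50-base stretches also occur in AT1G19540. The other 11 members of this list lay within 2-fold, among them MDAR2 (316 and 197), DHAR2 (87.6 and 118) and the cytosolic peroxidase APX1, the most abundant, at 1076 and 1091. Glutathione reductase GR1 was at 80.8 and 68.4, and the glutathione peroxidases ranged from a log2 ratio of 0.02 for GPX2 to 0.96 for GPX4 (0.744 and 2.40). GPX4 was past 2-fold with a pseudocount of 0.1 (log2 1.57) and with equal sums of 1000000 (log2 1.09). APX2 of the recycling list was past 2-fold with a pseudocount of 0.1 (log2 1.06). None of 10 superoxide dismutase and catalase genes was 2-fold apart (median 0.20), the lowest being CAT3 (533 and 299.7) and the highest FSD1 (38.3 and 65.1). None of 7 tocopherol genes was either (median 0.00).

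**Figure D3:**
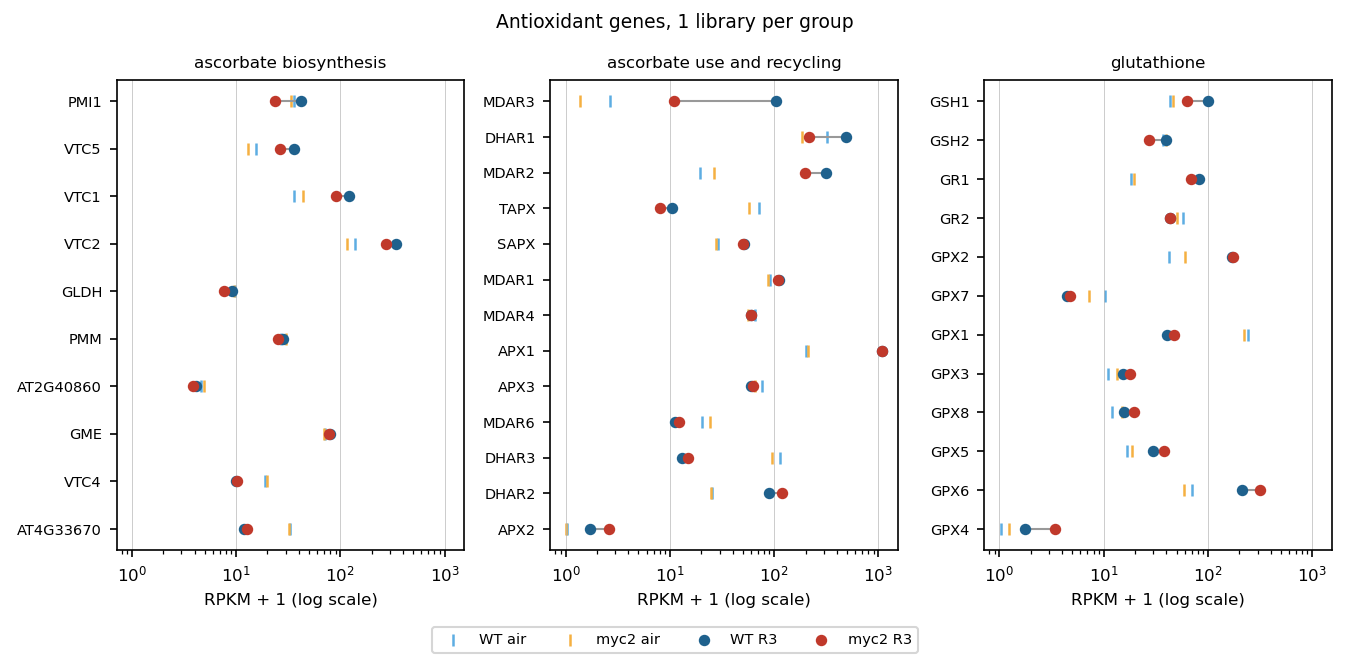
RPKM + 1 on a log axis for ascorbate synthesis, ascorbate use and recycling, and glutathione genes, with WT R3 as blue and myc2 R3 as red points joined by a line and the air libraries as ticks (1 library each, no error bars). The lines are short in the left and right panels, where no gene is 2-fold apart on this scale of RPKM + 1, and long only for MDAR3 and DHAR1 in the middle panel.

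Salicylic acid defence genes leaned the other way. Of 13 members past the filter 12 had a ratio above 0, 3 were at least 2-fold higher against 1.92% of all genes, none was lower, and the median was 0.61 against 0.04. PR1, the usual marker of salicylic acid signalling, was at 2.04 RPKM in WT R3 and 34.2 in myc2 R3 (log2 3.53), the highest ratio where the mean was at least 5 RPKM. PR2, a beta-1,3-glucanase, was at 12 and 111 (log2 3.11). In both, it was the WT R3 library that stood lowest of the 4, since PR1 was at 12.9 and 25.4 and PR2 at 73.4 and 53.5 in air. ICS1, the isochorismate synthase of salicylic acid synthesis, was at 11.8 and 28.6 (log2 1.21). WRKY70 (104 and 170.0) and SARD1 (14.4 and 24), regulators of this pathway, were higher by less than 2-fold, and only the exporter gene EDS5 was lower (16.4 and 12.5). ALD1 and FMO1 were under the filter, FMO1 at 0.453 and 1.16. In air the median of the list was 0.37 against 0.22 for all genes, and no member was 2-fold apart. The element TTGAC, the core bound by WRKY factors, stood within 300 bases of the start of 8 of these 13 genes, a share of 61.5%, against 50.3% of all windows.

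Heat shock genes were higher in myc2, 12 of 21 by at least 2-fold against 1.92% of all genes, and all 21 ratios were above 0, with a median of 1.05 against 0.04. HSP21, a small heat shock protein of plastids, was at 11.5 RPKM in WT R3 and 36.4 in myc2 R3 (log2 1.58), and at 0 in both air libraries. HSP18.2 was at 239 and 612, and HSP17.6A, the most abundant small heat shock gene in myc2 R3, at 413 and 977. The smallest differences were those of the regulator HSFB2A (17.1 and 19.7) and of HSP70 (819 and 1034, log2 0.34). HSFA2, the factor that sustains their induction, was at 60.5 and 99.5. In air 10 of these genes passed the filter, and their median was 0.15 against 0.22 for all genes. The heat shock element GAANNTTC, which also reads alike on both strands, occurred in 7 of these 21 upstream windows (33.3%) against 11.4% of all, and HSP21, the gene of this list with the highest ratio, carries it 100 bases before its start.
HSP21 (chr4:13819972-13820271, minus strand): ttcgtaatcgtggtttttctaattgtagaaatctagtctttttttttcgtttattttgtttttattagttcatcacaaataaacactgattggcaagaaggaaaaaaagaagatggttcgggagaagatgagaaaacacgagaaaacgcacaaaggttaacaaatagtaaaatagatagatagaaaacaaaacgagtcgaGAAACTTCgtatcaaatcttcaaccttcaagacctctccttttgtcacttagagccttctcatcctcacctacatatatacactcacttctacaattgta

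The ratio moved with gene length, and the heat shock genes are short. The median log2 ratio was 0.38 among genes with under 600 exon bases and −0.15 among those with 3000 or more, falling in each of the 6 length classes, whereas in air it ranged only from 0.20 to 0.30. Of genes under 600 bases 15.7% were at least 2-fold higher, and of those with 3000 or more 0.140%. Genes shorter than 1000 bases made up 52.4% of the higher genes, 14.0% of the lower genes and 13.5% of all. With the median of its length class subtracted from each gene, 197 genes were higher and 313 lower. The heat shock list, with a median exon length of 1048 bases, then had 9 of 21 members higher and a median of 0.90, while the salicylic acid list had 3 higher and the JAZ list 10 lower. The myc2 R3 library also held 7.46% of its summed RPKM in plastid-encoded loci against 3.11% in WT R3. A single locus, ATCG00220, held 58.2% of that plastid sum, at 6722 RPKM in WT R3 and 25348 in myc2 R3, and without it the shares were 3.12% and 1.84%. The part of length or of these loci in the differences was not tested.

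**Figure D4:**
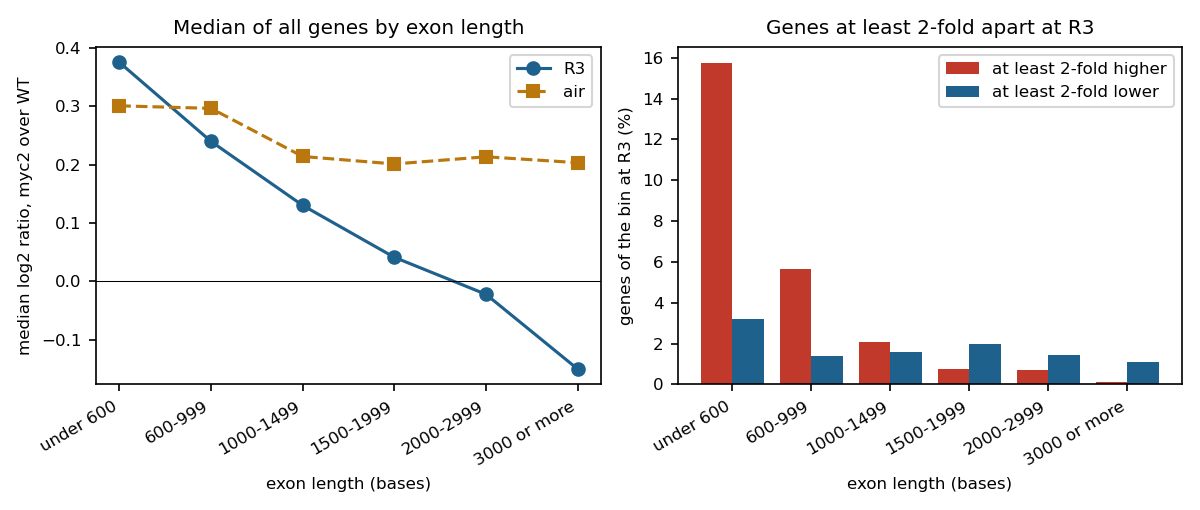
The left panel plots the median log2 ratio of myc2 to WT by exon length class, at R3 (blue) and in air (orange), and the right panel the share of genes in each class at least 2-fold higher (red) or lower (blue) at R3. At R3 the median falls from 0.38 to −0.15 and the share of higher genes from 15.7% to 0.140%, while the share of lower genes stays between 1.12% and 3.21%.

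Secondary metabolism was lower in parts. All 7 ER body genes past the filter were at least 2-fold lower in myc2, with a median of −1.52. In air none of the 6 that passed was 2-fold lower, and their median was 0.14 against 0.22 for all genes. ER bodies are compartments that store beta-glucosidases for defence. Their main enzyme gene PYK10 was at 62.8 RPKM in WT R3 and 11.4 in myc2 R3 (log2 −2.36), NAI1, the helix-loop-helix factor that controls it, at 13.3 and 3.04, and BGLU18, the glucosidase of wounded leaves, at 122 and 54. PYK10 and its homologues BGLU21 and BGLU22 are also root markers. BGLU21 was at 0 in both libraries and BGLU22 at 1.52 and 0.137, and PYK10 overlaps a gene on the opposite strand.

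Flavonoid and anthocyanin genes were lower in 7 of 15, with a median of −0.71. In air no member was 2-fold lower, and the median was 0.43 against 0.22 for all genes. The late enzymes stood lowest, with LDOX, the anthocyanidin synthase, at 14 and 1.87 RPKM (log2 −2.39) and DFR, the dihydroflavonol reductase, at 8.91 and 2.04. The sugar- and acyl-transferase genes UF3GT and 5MAT were at 3.48 and 0.421 and at 6.60 and 1.53. CHS, the entry enzyme, was at 81.4 and 35, and FLS1, the flavonol synthase, at 6.06 and 7.34. With a pseudocount of 5 RPKM in place of 1, 3 of the 15 were at least 2-fold lower. Indole glucosinolate genes were mixed, with MYB34, their activator, at 30.3 and 9.12 (log2 −1.63) and CYP79B3, the entry enzyme, at 33.1 and 14.7, but its paralogue CYP79B2 at 67.8 and 77.8 and MYB51 at 7.40 and 15.5. Aliphatic glucosinolate genes (14, median −0.31) and tryptophan synthesis genes (7, median −0.05) had no member 2-fold apart.

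Genes of low oxygen and oxidative stress lay within 2-fold. No hypoxia gene of 16 was 2-fold apart (median 0.27), with the alcohol dehydrogenase gene ADH1 at 159.6 and 147 RPKM, the haemoglobin gene HB1 at 79.5 and 129 and HRA1, a repressor of the response, highest in ratio at 1.24 and 2.89. No oxidative stress signalling gene of 15 was (median 0.28), although BAP1 (13.9 and 28.5) and the glutathione transferase gene GSTU24 (134 and 265) came close at log2 0.99 and 0.98. With a pseudocount of 0.1, HRA1 (log2 1.16) and BAP1 (log2 1.03) were past 2-fold. The NADPH oxidase gene RBOHD, a source of reactive oxygen, was at 33.2 and 29.6. Of 23 abscisic acid and dehydration genes 2 were higher, COR15A (43.2 and 96) and LTI30 (50.7 and 112), and 1 was lower, RD20 (195 and 90.7), with a median of 0.08. Neither higher call held with both libraries at an equal sum on the scale of the deposited values (log2 0.99 for each), and LTI30 was at 0.89 with the length median subtracted. Senescence (13), photosynthesis (32), ethylene (14), clock (16) and reference genes (11) had no member 2-fold apart, with medians from −0.08 to 0.17. Of 16 wax and lipid transfer genes LTP4 (216 and 62.3) and CYP96A15 (13.1 and 5.70) were lower and LTP6 (3.38 and 9.16) was higher, with a median of −0.43 and 11 of 16 ratios below 0. LTP6 was at log2 0.97 with the length median subtracted and at 0.76 with a pseudocount of 5, with which CYP96A15 was at −0.75. In air 9 of these 16 genes were at least 2-fold higher in myc2, against 2.47% of all genes there, with a median of 1.14.

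**Figure D5:**
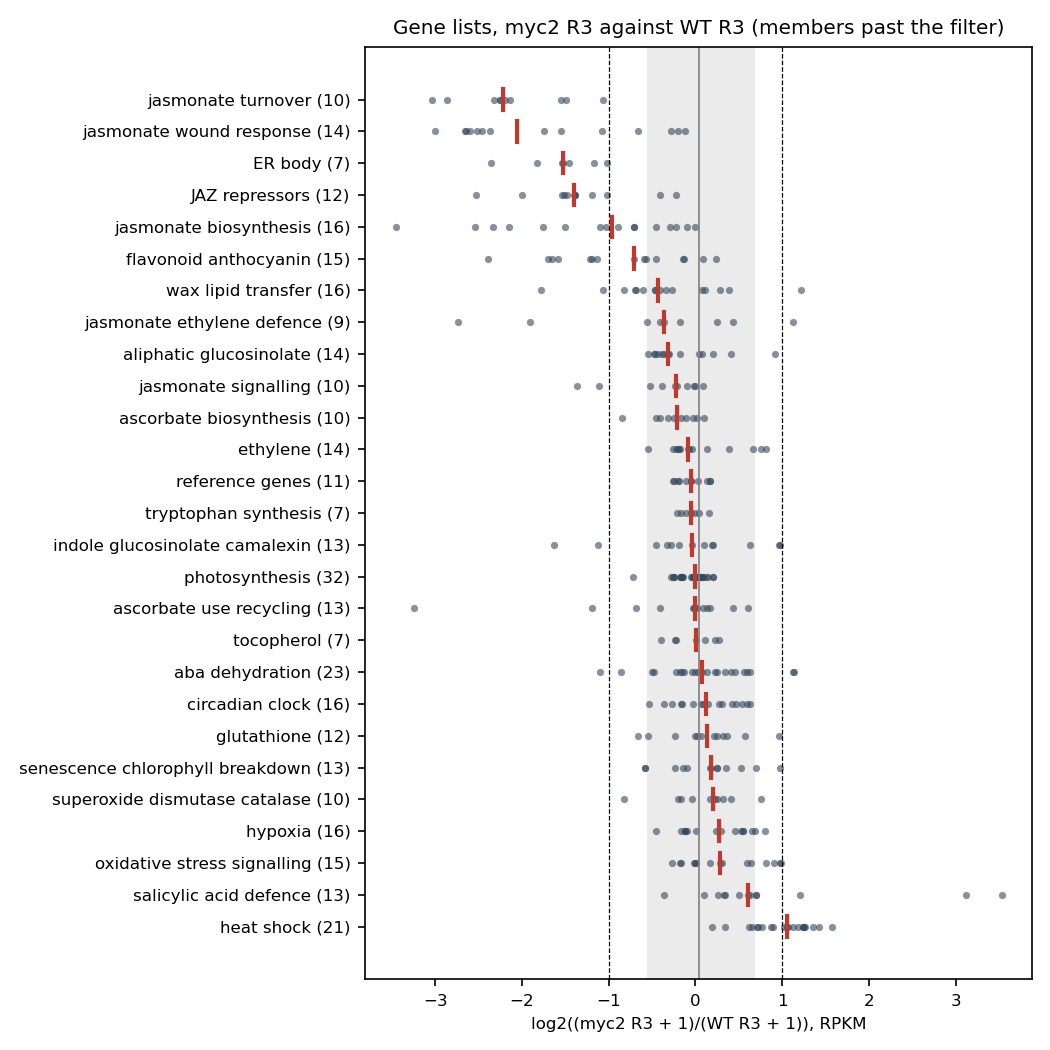
Each dot is the log2 ratio of myc2 R3 to WT R3 for 1 gene past the filter, by list (number of genes in brackets), with the list median in red. The grey band holds the middle 90% of all genes (−0.55 to 0.68), the grey line their median (0.04) and the dashed lines 2-fold. The medians run from jasmonate turnover at −2.22 to heat shock at 1.05.

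Where the mean was at least 5 RPKM, the 10 lowest ratios included LOX2, MDAR3, AT2G38240, NATA1 and CYP94B3 from the lists above. The lowest of all was AT5G19110, annotated as an aspartyl protease, at 44.2 RPKM in WT R3 and 2.42 in myc2 R3 (log2 −3.72). FAMT, a methyltransferase of farnesoic acid, was at 377 and 35.9. AT1G66100, annotated as a thionin, was at 177 and 17 at R3 but at equal levels in air (657 and 658). MSRB7, a methionine sulfoxide reductase that repairs oxidised protein and shares 18.2% of its 50-base stretches with a neighbour, was at 58.3 and 5.51. AT1G76640, a calmodulin-like gene also named CML39, was at 21.3 and 1.49.

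The 10 highest ratios were led by PR1 and included PR2. PNP-A, a natriuretic-like peptide, was at 6.10 RPKM in WT R3 and 56.3 in myc2 R3 (log2 3.01), and AT4G10500, an oxygenase also named DLO1, at 0.717 and 12.6 (log2 2.99). AT1G13609, a defensin-like gene of 501 exon bases, was at 1.37 and 17.3, and AT3G28510, annotated as a nucleoside triphosphate hydrolase, at 3.08 and 28.2. The other 4 are uncharacterised: AT4G37290 (2.01 and 30.9), AT1G76960 (1.73 and 19.4), AT2G14247 (4.58 and 31.6) and AT1G58225 (1.26 and 12.1). In each of these 10 the WT R3 value was at or below 12 RPKM. In AT1G76960 the air libraries stood higher than both, at 52.3 and 93.9.

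The genotype difference at R3 was set beside that in air, which uses other libraries. Of the 280 genes at least 2-fold lower at R3, 29 were also lower in air, which is 10.4% of the R3 list, 14.1% of its 206 genes past the filter in air and 50.9% of the 57 genes lower in air. Those 57 were 0.343% of the genes tested in air, so the 14.1% stood above the share over all genes. Most of the 206 genes were still not 2-fold lower in air. Of the 335 higher genes 27 were also higher in air, 8.06% of the R3 list, 14.4% of the 188 of its genes past the filter in air and 6.59% of the 410 in air, which were 2.47% of the genes tested there. Across 15883 genes past the filter in both conditions the log2 ratios at R3 and in air correlated at r = 0.11 (Spearman 0.01), given as a description because genes are not independent replicates and the libraries differ in depth. The 206 genes lower at R3 that could be compared in air had a median of −0.10 there, against 0.22 for all genes.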

How the data were processed

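For each library the authors deposited a table that lists a value for every locus (AGI code, the Arabidopsis gene identifier). The deposited values of myc2 R3 and of both air libraries are RPKM, per the file names the submitters gave. Per the file headers the WT R3 column holds FPKM (counted in fragments), while its table is named as RPKM, and all were read as 1 unit and called RPKM. The submitters' processing notes name TopHat, Cufflinks and build TAIR10. Not given in the sources used here are the versions, the settings, the use of strand and the handling of multiple matches.

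Values as deposited were turned into log2((myc2 + 1)/(WT + 1)) with a pseudocount of 1 RPKM, for genes whose mean over both libraries reached 1 RPKM, and those 2-fold or more apart were counted. The pseudocount shrinks the ratios of low genes. RPKM values are not counts, and with 1 library per group no test was run. In low genes 37.2% of the products of RPKM, exon length and estimated depth came out within 0.1 of a whole fragment in each R3 library. The depth was chosen to bring these products close to whole numbers, and some would come so close at random. That share is therefore no independent check, depths are approximate and no reads were recovered. From 1292 genes low in both, the depth of myc2 R3 was estimated at 80.4% of that of WT R3.

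The members and the 28 gene lists (399 loci, 371 of them past the filter) were chosen with earlier results of these data known, and 9 gene families, taken by RefSeq symbol and product, were added after values had been seen. Lists are described by counts and medians, to be read against those of all genes. The rule for names took MYC2, MYC3, MYC4, COI1, VTC1, VTC2, GSH1, GSH2, VSP2 and LOX2, the 10 highest and 10 lowest ratios with a mean of at least 5 RPKM, up to 5 members of each list, and any member of the jasmonate, JAZ, ascorbate and glutathione lists. Other genes in the text, such as HSFA2, HSP70, ADH1, HB1, RBOHD, CHS, BGLU18 and CYP79B2, were chosen after their values were seen. Exon lengths, products and windows came from RefSeq (TAIR10.1), in which 112 of the genes tested had no entry, and coordinates are those of that assembly. Shared sequence was counted in stretches of 50 bases. The alternatives changed the pseudocount (0.1 or 5) or the filter (none, or 5 RPKM), applied 3 rescalings (median of ratios, equal sum, and the sum without the 50 highest genes) and, added after seeing the data, set equal sums at the geometric mean of both sums or subtracted the median of each of 6 exon-length classes. Equal sums as first planned, at 1000000, nearly doubled the values and so also lowered the weight of the pseudocount. The computation was tested on simulated data with altered genes. Python 3.11.15, pandas 2.3.3, NumPy 2.4.6 and Matplotlib 3.10.9 were used.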

Additional observations from a re-analysis of the deposited data

Results flagged for a closer look

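In 14 genes past the filter in both conditions the 2 genotypes stood in opposite order in the 2 conditions, each at least 2-fold lower in myc2 at R3 and at least 2-fold higher in myc2 in air, and no gene past both filters stood the other way. In air 410 genes (2.47%) were higher in myc2 and only 57 (0.343%) lower, so the second order had less room to occur. The difference between conditions was not tested, since each value rests on 1 library per group. Log2 ratios of myc2 to WT are given at R3 and then in air. The genes were LTP4, a lipid transfer protein (−1.78 and 3.99), CYP96A15, a wax alkane hydroxylase (−1.07 and 3.78), FLA12, a fasciclin-like arabinogalactan protein (−1.92 and 2.22), PER64, a peroxidase (−2.66 and 2.64), and AT4G11210, annotated as dirigent-like (−1.33 and 1.45). LTP4 stood in air at 5.48 RPKM in the WT library against 102 in that of myc2, and at R3 at 216 and 62.3. CYP96A15 was at 2.59 and 48.2 in air and at 13.1 and 5.70 at R3. The rest were the auxin-responsive gene IAA19 (−1.05 and 1.19), DR4 (−1.27 and 1.3), CYP708A3 (−1.37 and 1.08), the amine oxidase AT1G31710 (−1.35 and 1.07), the cupredoxin AT1G72230 (−1.01 and 2.35), the glycosyltransferase AT5G38010 (−1.26 and 1.73) and the glycoprotein precursor AT3G06035 (−1.03 and 1.27). AT3G14395 (−1.03 and 1.02) and AT5G04238 (−1.16 and 1.12) complete the set, and PER64 and AT5G04238 overlap a gene on the opposite strand. With a pseudocount of 5, ratios at R3 lay within 2-fold for AT4G11210, AT5G04238, AT3G14395, CYP96A15, IAA19, AT1G72230, AT3G06035, AT5G38010, AT1G31710 and DR4. These ratios ran from −0.48 for AT4G11210 to −0.98 for DR4. In myc2 R3, AT4G11210 and AT5G04238 rested on an estimated 7.646 and 7.997 fragments.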

How the results depend on the processing

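The counts moved with the pseudocount and the balance of directions with the scaling. Genes at least 2-fold higher in myc2 R3 numbered 524 with a pseudocount of 0.1 and 157 with 5, and lower genes 395 with 0.1 and 135 with 5. The share of higher genes among those 2-fold apart, 54.5% as deposited, was 49.6% with the median of ratios, 39.1% with equal sums of 1000000 (426 lower genes), 38.4% with equal sums at the scale of the deposited values (chosen after seeing the data) and 46.5% with the sum without the 50 highest genes. Subtracting the median of the exon-length class, also chosen then, gave 197 higher genes and a share of 38.6%, and 265 of the 280 lower but 192 of the 335 higher genes were still at least 2-fold apart. Setting the sum to 1000000 changes the scale against the pseudocount as well as the balance. The cause of the other shifts was not tested. No direction of a named gene past 2-fold turned under any alternative, but none could have. A pseudocount or filter keeps the sign, and the rescalings and length-class medians (0.38 at most) shift ratios by less than 2-fold. Over all alternatives the members at least 2-fold lower numbered 7 to 10 in the JAZ list, 7 to 9 in jasmonate biosynthesis, 8 to 10 in turnover, 9 to 10 in wound response and 3 to 7 in the flavonoid list, and those higher numbered 3 in the salicylic acid list and 8 to 12 in the heat shock list. No paired analysis was possible because each group holds 1 library, and the replicate numbers only name libraries. Depth limits low genes most, and without replicates no difference can be set against the spread between plants.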

Other observations

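Further gene families, grouped by their RefSeq symbols and products after their values had been seen, are given as values only, and their counts stand against 1.6% lower and 1.92% higher among all genes. Myrosinases, which hydrolyse glucosinolates in damaged leaves, were lower in myc2 R3, with TGG2 at 429 RPKM in WT R3 and 109 in myc2 R3 and TGG1 at 417 and 128, although in air TGG1 was at 412 and 428. The nitrile specifier gene NSP1, which shares 27.5% of its 50-base stretches with a neighbour, was at 143 and 39.7. Of the 6 myrosinase and specifier genes past the filter 4 were at least 2-fold lower, while NSP5 (401 and 345) and ESM1 (171 and 173) lay within 2-fold. Of 6 jacalin-type lectin genes 4 were at least 2-fold lower, among them PBP1 (AT3G16420) at 259.8 and 71.6. Methionine sulfoxide reductases, which repair oxidised protein, were lower for 3 of 9, with MSRB9 at 304 and 48 and MSRB6 at 25.9 and 4.73, while MSRB2 was at 59.1 and 58.7. Of 5 annexin genes 3 were lower, with ANNAT4 at 92.1 and 16.1. Of 26 cellulose synthase, secondary wall and fasciclin-like genes 8 were lower and none higher, with a median log2 ratio of −0.70 (3 to 10 lower over the alternatives, 5 with the exon-length median subtracted), and the laccase gene IRX12 was at 8.86 and 1.89. In air 3 of the 23 wall genes past the filter were at least 2-fold higher in myc2 and none lower. Their median in air was 0.54, against 0.22 for all genes.

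In the other direction, 7 of 29 cysteine-rich receptor kinase genes were at least 2-fold higher in myc2 R3 (4 to 8 over the alternatives) and none was lower (1 under 5 of the alternatives), with CRK37 at 0.867 and 8.71 RPKM and CRK7 at 3.38 and 12.6. CRK6, at 5.82 and 30.4, shares 22% of its 50-base stretches with AT4G23160. Of 6 elicitor peptide precursor genes 2 were higher, PROPEP2 at 5.52 and 24.2 and PROPEP3 at 30.4 and 96.8. The other 4 lay within 2-fold, and PROPEP4 had a ratio below 0 (3.48 and 2.00). PROPEP3 has 519 exon bases, and of all genes under 600 bases 15.7% were at least 2-fold higher. Of 56 WRKY transcription factor genes 4 were higher and none lower (1 to 6 higher over the alternatives, 2 with the exon-length median subtracted), with WRKY55 at 1.65 and 8.36, and the median of the family was 0.17. Of 4 LSU genes, which respond to low sulfur, 2 were higher, LSU1 at 1.75 and 13.5 and LSU4 at 7.97 and 22.2. LSU2 (41.2 and 43.1) and LSU3 (15.3 and 17.9) lay within 2-fold. In air the median log2 ratio of these 4 was −0.68, and none was 2-fold apart. Of 68 plastid-encoded loci past the filter 13 were higher and none lower, with a median of 0.41 and the highest ratio at ATCG00220 (log2 1.91). Of 28 mitochondrial loci 2 were higher and none lower, with a median of 0.65 and a lowest ratio of 0.05.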
